A study of Mus musculus with 24 samples.

Results

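The respiratory chain subunit genes described here were the 80 genes whose mouse symbol starts with Nduf, Uqcr, Atp5 or Cox4 to Cox8, or is Sdha, Sdhb, Sdhc or Sdhd, of 15267 genes with a value. They comprised 34 complex I genes, 8 complex I assembly factors (Ndufaf genes), 4 complex II genes, 6 complex III genes, 16 complex IV genes and 12 ATP synthase genes. Complexes were assigned by symbol, so Ndufa4 and Ndufa4l2 count with complex I throughout. Each was read by 1 probe set, none was removed for a dim signal, and the rule uses symbols only. The samples came from the intestine of male C57BL/6 mice aged 3 to 3.5 months, either Amacr-/- or wild-type. The deleted gene, Amacr, makes the racemase of alpha-methyl-branched acyl-CoAs, an enzyme needed for making bile acids and for oxidizing branched fatty acids. Each intestine was divided into 4 segments of equal size, numbered 1 to 4, and the scraped layer of each segment gave total RNA for a one-colour array. Every combination of genotype and segment had 3 biological replicates, which made 8 groups and 24 arrays, and the study compared genotypes segment by segment with cholesterol absorption in view. The values are deposited log2 signals, so that a difference of 1 is a doubling, and a level can be set only against the same gene's level in another sample.

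The respiratory chain sits in the inner mitochondrial membrane. Complex I takes electrons from NADH and complex II from succinate, both pass them through ubiquinone to complex III, and cytochrome c carries them on to complex IV, which reduces oxygen. Complexes I, III and IV pump protons, and the ATP synthase uses the return flow of protons to make ATP. Absorptive enterocytes depend on this ATP, since the sodium pump that drives nutrient uptake consumes it, and they burn glutamine and fatty acids in their mitochondria. The members are the nuclear-encoded subunits, and the subunits encoded by mitochondrial DNA are outside the rule.

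The labels do not say at which end segment 1 lies, and call the scraped cells endothelial. Fabp6 and Slc10a2, a bile acid binding protein and a bile acid transporter of the ileum, had medians of 4.15 and 4.46 in segment 1 and of 14.64 and 11.55 in segment 4, so that segment 4 held the ileal end by these genes, which were chosen with their values known. Means over 9 measured enterocyte markers lay at 13.07 to 13.61 on the 24 arrays, and means over 10 vessel endothelium markers at 4.68 to 5.44. These are signals of different probe sets, so they give no comparison of amounts. Amacr itself lay at 6.96 to 8.75 on the wild-type arrays and 4.81 to 5.60 on the knockout arrays, with differences of -3.08, -2.84, -1.95 and -2.08 in segments 1 to 4 (SE 0.19 each). Markers of exocrine pancreas, fat or smooth muscle stood more than 1 log2 unit above their mean over arrays on 6 arrays. These were wild-type segment 1 replicate 1 and knockout segment 1 replicate 3 (pancreas), wild-type segment 2 replicate 3 and knockout segment 2 replicate 1 (fat and smooth muscle), and knockout segment 2 replicate 3 and knockout segment 3 replicate 3 (fat). The main counts of members called between segments 1 and 4 are also given without them. In knockout segment 2 only replicate 2 is then left.

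The members were lower in segment 4 than in segment 1 in both genotypes. Averaged over the genotypes, 57 of the 80 genes fell from segment 1 to segment 4 at an adjusted p under 0.05, and 2 rose, Ndufa4l2 and Ndufaf6, where 37.9% of all genes were called in either direction. Of all genes, 19% were called lower and 18.9% higher. Most members were bright, and dim genes were called less often. Among the 7635 genes with a mean level at or above the median over genes, 4515 were called. That set held 75 members, of which 58 were called lower and 3 higher. The median difference of the members was -0.36 and that of all genes 0.01. The test was limma's moderated test over all genes with Benjamini-Hochberg adjustment. On the 18 other arrays, without the 6 named above, 52 members were called lower and 2 higher, with a median of -0.34, where 37% of all genes were called. In these bulk samples, fewer cells rich in mitochondria and less RNA per cell cannot be told apart.

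Over the 64 members that are neither assembly factors nor tissue-restricted isoforms, 53 fell, 0 rose and the median difference was -0.40. Of the other 11, 9 were lower without passing the test. The mean level of these 64 genes was 11.64 ± 0.08 in segment 1, 11.52 ± 0.10 in segment 2, 11.29 ± 0.09 in segment 3 and 11.21 ± 0.08 in segment 4 (SD over 6 arrays of both genotypes). The array means ranged from 11.53 to 11.75 in segment 1 and from 11.08 to 11.29 in segment 4, so these segments did not overlap. Segments 3 and 4, at 11.20 to 11.39 and 11.08 to 11.29, did overlap.

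**Figure D1:**
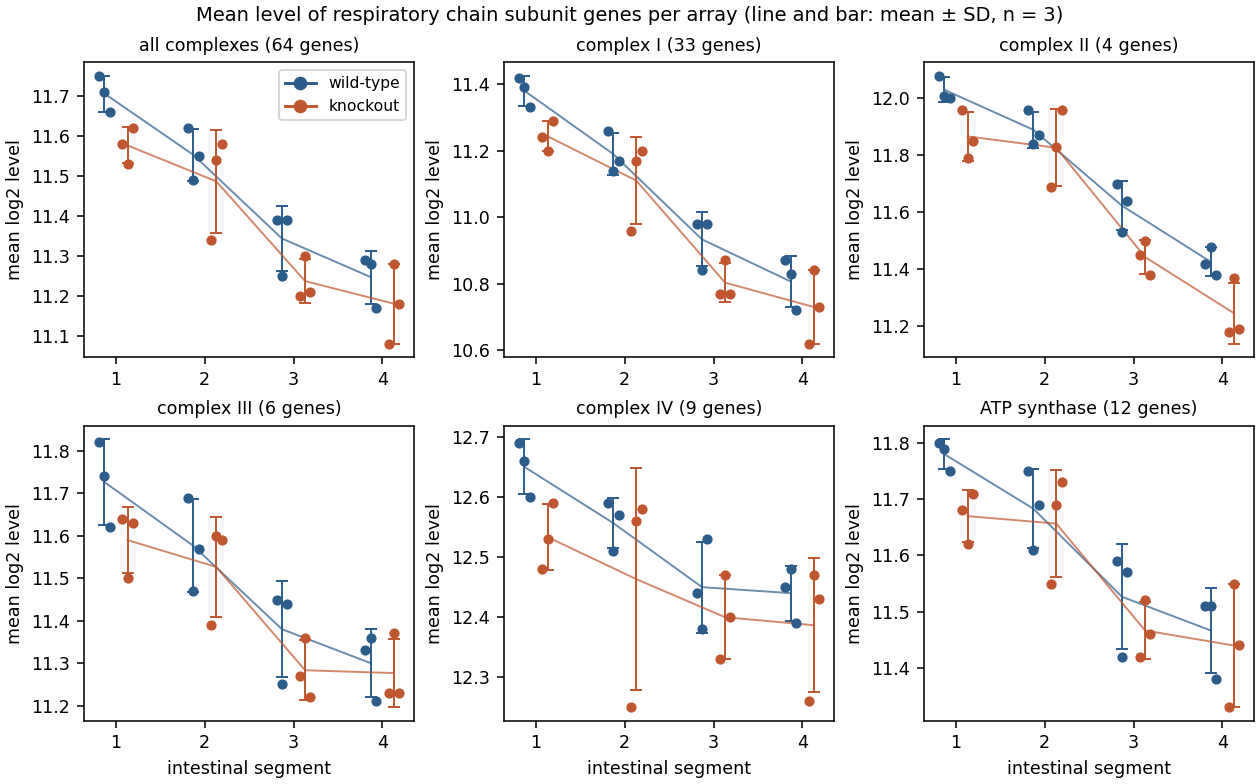
Mean log2 level of the subunit genes on each array (points), by segment (x axis) and genotype, for the 64 genes together and by complex, with lines through the group means and bars for the SD of 3 arrays. The means over the 64 genes lie at 11.53 to 11.75 in segment 1 and at 11.08 to 11.29 in segment 4.

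The plot of array means by complex shows the decline in each panel, and the size of it differed between them. The mean over the complex I genes shown was 11.31 in segment 1 and 10.77 in segment 4, and that over the complex II genes was 11.95 and 11.34. For complex IV the means were 12.59 and 12.41, and the range of the arrays was 12.48 to 12.69 against 12.26 to 12.48. These sizes are given without a test of their difference. The mean over the complex III genes went from 11.66 in segment 1 to 11.29 in segment 4, and that over the ATP synthase genes from 11.72 to 11.45. Over single genes, the 18 of the 64 genes with a mean signal of at least 12 had a median difference of -0.23, and the 46 below that limit, which was chosen after the values were seen, had -0.49. The part of the signal range in the size of a fall was not tested.

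Nuclear respiratory factor 1 (NRF-1), GA binding protein (GABP) and the oestrogen-related receptor ESRRA are known regulators of respiratory chain promoters. The windows from 250 bases before to 50 bases after the start, from RefSeq on GRCm38.p6, were available for 65 of the 80 members, and both strands were searched for CGCATGCG (NRF-1, the same on either strand), CCGGAAG (GABP) and TCAAGGTCA (ESRRA). CGCATGCG stood in windows of 8 of the 65 members (12.3%) and of 413 of all 12273 genes with a window (3.37%). CCGGAAG stood in 14 of the 65 (21.5%) and in 15.5% of all genes, and TCAAGGTCA in 2, Sdhd and Atp5g3 (3.08%), and in 0.359% of all genes. The share with CCGGAAG was 10% of the 30 complex I genes with a window. It was 25% to 66.7% in the other groups, of 3 to 11 genes each. A few windows are shown for members of different complexes that fell from segment 1 to segment 4, each 5′ to 3′ on the gene's strand with the matches in capitals. Sdhd (chr9:50603800-50604099, minus strand) holds the GABP and ESRRA letters, both read on the opposite strand. Uqcrc1 (chr9:108936398-108936697, plus strand) holds the NRF-1 letters, and Atp5k (chr5:108434350-108434649, minus strand) those of NRF-1 and, on the opposite strand, GABP. Cox7a1 (chr7:30183921-30184220, plus strand) and Ndufb3 (chr1:58586147-58586446, plus strand), with larger falls, hold none of the 3 motifs in this window. A match describes the letters only and shows no binding.
Sdhd: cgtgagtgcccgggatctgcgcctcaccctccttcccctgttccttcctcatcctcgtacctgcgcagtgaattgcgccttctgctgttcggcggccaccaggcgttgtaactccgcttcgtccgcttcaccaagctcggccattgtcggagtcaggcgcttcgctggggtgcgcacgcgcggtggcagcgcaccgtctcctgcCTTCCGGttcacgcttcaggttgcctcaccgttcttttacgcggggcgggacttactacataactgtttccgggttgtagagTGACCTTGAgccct
Uqcrc1: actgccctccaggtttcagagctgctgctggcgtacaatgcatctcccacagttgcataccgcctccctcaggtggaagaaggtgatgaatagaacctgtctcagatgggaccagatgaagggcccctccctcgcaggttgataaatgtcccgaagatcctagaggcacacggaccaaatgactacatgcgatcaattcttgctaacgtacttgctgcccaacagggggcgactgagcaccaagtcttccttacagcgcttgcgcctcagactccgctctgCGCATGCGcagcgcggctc
Atp5k: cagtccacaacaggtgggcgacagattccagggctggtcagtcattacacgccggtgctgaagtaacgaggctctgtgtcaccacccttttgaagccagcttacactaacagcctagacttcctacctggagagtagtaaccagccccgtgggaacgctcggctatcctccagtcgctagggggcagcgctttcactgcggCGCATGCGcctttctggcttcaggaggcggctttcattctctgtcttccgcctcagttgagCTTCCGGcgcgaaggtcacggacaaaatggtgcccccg
Cox7a1: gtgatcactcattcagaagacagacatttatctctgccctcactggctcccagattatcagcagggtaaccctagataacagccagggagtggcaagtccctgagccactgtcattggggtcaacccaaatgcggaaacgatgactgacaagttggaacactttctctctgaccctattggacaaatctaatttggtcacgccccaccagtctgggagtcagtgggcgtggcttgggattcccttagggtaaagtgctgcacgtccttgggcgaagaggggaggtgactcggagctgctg
Ndufb3: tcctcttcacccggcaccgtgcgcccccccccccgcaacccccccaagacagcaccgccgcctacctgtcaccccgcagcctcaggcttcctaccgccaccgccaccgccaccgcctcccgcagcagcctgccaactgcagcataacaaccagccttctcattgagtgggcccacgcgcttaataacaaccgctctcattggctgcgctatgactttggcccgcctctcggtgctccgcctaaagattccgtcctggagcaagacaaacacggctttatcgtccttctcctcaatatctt

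Complex I, the entry point for electrons from NADH, had 31 of its 34 genes called lower in segment 4 than in segment 1, with a median difference of -0.49. Ndufa4l2 was called higher, and Ndufa6 (-0.21, adjusted p 0.133) and Ndufb11 (-0.17, adjusted p 0.0513) did not pass. Without the 6 arrays high in other tissues' markers, 31 were again called lower, with a median of -0.47. The core subunits, which carry the flavin and the iron-sulphur clusters, were measured for 5 genes, and all 5 fell, with a median of -0.60. Among them Ndufv1, which binds NADH, had a level of 11.14 ± 0.08 in segment 1, 10.64 ± 0.08 in segment 3 and 10.41 ± 0.09 in segment 4 (SD, n = 6). Its difference between segments 4 and 1 was -0.74 (SE 0.05, adjusted p 1.38e-09).

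Ndufa5, an accessory subunit of the arm that holds the electron path, had the lowest adjusted p of the members. In segment 1 its 3 wild-type arrays lay at 11.23, 11.29 and 11.30 and its 3 knockout arrays at 11.04, 11.25 and 11.14. The segment 4 values were 10.15, 10 and 9.76 in wild-type and 9.70, 10.05 and 9.80 in knockout samples, all below every segment 1 array. The means over both genotypes were 11.21 ± 0.10, 10.69 ± 0.22, 10.14 ± 0.18 and 9.91 ± 0.18 in segments 1 to 4 (SD, n = 6). The difference of -1.30 (SE 0.07, adjusted p 3.74e-11) was spread over steps of -0.52, -0.55 and -0.23, each of which passed the test (adjusted p 1.50e-04, 6.04e-05 and 0.046). The last step was -0.25 and did not pass without the 6 arrays (adjusted p 0.0737).

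Ndufb3, an accessory subunit of the membrane arm, had means of 10.38 ± 0.12, 10.29 ± 0.09, 9.73 ± 0.19 and 9.39 ± 0.14 in segments 1 to 4 (SD, n = 6), and its step from segment 1 to 2 did not pass (adjusted p 0.497). The difference between segments 4 and 1 was -0.99 (SE 0.07, adjusted p 3.92e-10), and the ranges of 9.25 to 9.60 and 10.20 to 10.52 did not overlap. Ndufs5, another accessory subunit of the membrane arm, lay at 10.62 to 10.91 in segment 1 and at 9.70 to 10.18 in segment 4, a difference of -0.83 (SE 0.05, adjusted p 2.86e-10). Ndufb10, of the same arm, had means of 11.14 ± 0.17, 10.78 ± 0.18, 10.38 ± 0.18 and 10.25 ± 0.14 and a difference of -0.90 (SE 0.08, adjusted p 1.70e-08). These 3 genes showed the same order of segments as Ndufa5. Ndufa3, the complex I gene with the strongest signal, fell by 0.41 (SE 0.04, adjusted p 1.66e-07).

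Ndufa4 was long listed with complex I, and its protein is now assigned to complex IV. Ndufa4l2 is its relative known for induction by hypoxia. By symbol, both are within the 34 complex I genes counted here, Ndufa4 among those called lower and Ndufa4l2 as the one called higher. Ndufa4 had means of 11.99 ± 0.22, 12.15 ± 0.14, 11.77 ± 0.23 and 11.50 ± 0.06 in segments 1 to 4 (SD, n = 6), and its difference between segments 4 and 1 was -0.50 (SE 0.10, adjusted p 3.46e-04). Ndufa4l2, the dimmest of the complex I genes, had means of 6.12 ± 0.24, 6.42 ± 0.15, 6.42 ± 0.10 and 6.48 ± 0.18 and a difference of 0.36 (SE 0.11, adjusted p 0.0105). Its segment 1 arrays, at 5.82 to 6.41, overlapped those of segment 4, at 6.21 to 6.69. In neither genotype alone did Ndufa4l2 pass the test (adjusted p 0.103 in wild-type and 0.073 in knockout samples).

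The assembly factors, which help to build complex I and are not part of it, were mixed. Of 8 genes, 3 fell (Ndufaf3, Ndufaf4 and Ndufaf8), Ndufaf6 rose, and the median difference was -0.20. Ndufaf6 stood at 6.14 ± 0.29, 6.24 ± 0.19 and 6.24 ± 0.17 in segments 1 to 3 and at 6.83 ± 0.36 in segment 4 (SD, n = 6). In segment 4 its wild-type arrays lay at 6.95, 6.62 and 6.19 and its knockout arrays at 7.09, 7.16 and 6.97. All 3 knockout arrays were above every segment 1 array, whose highest was 6.50, and the lowest wild-type array was not. The rise of 0.69 (SE 0.13, adjusted p 3.42e-04) was 0.34 in wild-type (adjusted p 0.229) and 1.04 in knockout samples (adjusted p 2.80e-04), and the genotype by segment interaction did not pass for any member. Ndufaf3 fell by 0.32 (adjusted p 0.00149) and Ndufaf8, the brightest of the factors, by 0.30 (adjusted p 0.00133). Ndufaf4 fell by 0.36 at an adjusted p of 0.0484, and this call was lost without the 6 arrays (-0.20, adjusted p 0.264) and when single arrays were left out, with adjusted p between 0.0519 and 0.148. These were wild-type segment 1 replicate 1 or 2, knockout segment 1 replicate 3, wild-type segment 4 replicate 1 or 3, and knockout segment 4 replicate 1 or 3. The difference was 0.07 for Ndufaf7 and -0.19 for Ndufaf5, the dimmest factor, and neither passed.

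All 4 genes of complex II, the succinate dehydrogenase that also belongs to the tricarboxylic acid cycle, fell from segment 1 to segment 4. Their median difference was -0.61, also without the 6 arrays. Sdhc, one of the membrane anchors, lay at 11.51, 11.46 and 11.48 in wild-type and 11.41, 11.24 and 11.28 in knockout samples of segment 1. In segment 4 it lay at 10.86, 10.91 and 10.87 in wild-type and 10.50, 10.75 and 10.41 in knockout samples, below every array of segment 1. The difference was -0.68 (SE 0.06, adjusted p 2.33e-08). Sdhd, the other anchor, had means of 11.55 ± 0.14 and 10.89 ± 0.19 (SD, n = 6) and a difference of -0.66 (SE 0.08, adjusted p 1.13e-06). Sdha, the flavin-bearing subunit, had means of 12.21 ± 0.12 and 11.66 ± 0.08 and fell by 0.56 (SE 0.06, adjusted p 1.17e-07). Sdhb, which holds the iron-sulphur clusters and had the strongest signal of the 4, had means of 12.63 ± 0.10 and 12.08 ± 0.09 and fell by 0.55 (SE 0.06, adjusted p 2.40e-07). None of the 4 genes had overlapping arrays between segments 1 and 4.

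Complex III had 5 of 6 genes called lower, with a median of -0.34, and 3 of 6 without the 6 arrays, with a median of -0.32. Uqcrc1, a core protein of the complex, had means of 11.97 ± 0.20, 11.78 ± 0.18, 11.45 ± 0.09 and 11.30 ± 0.11 in segments 1 to 4 (SD, n = 6). It fell by 0.67 (SE 0.09, adjusted p 6.64e-06), with the highest value, 12.30, on wild-type segment 1 replicate 1, an array high in pancreas markers. Uqcrfs1, the Rieske iron-sulphur protein, had ranges of 11.80 to 12.14 in segment 1 and 11.23 to 11.51 in segment 4, which did not overlap, and fell by 0.59 (SE 0.06, adjusted p 3.36e-07). Uqcr10, a small subunit, fell by 0.48 (SE 0.08, adjusted p 6.91e-05). Uqcrh, the hinge protein and brightest of the 6, fell by 0.19 at an adjusted p of 0.0316. That call was lost without the 6 arrays (adjusted p 0.054), and on leaving out wild-type segment 1 replicate 1 or 2, knockout segment 1 replicate 1 or 3, wild-type segment 4 replicate 3, or knockout segment 4 replicate 1 or 3 (differences of -0.17 to -0.19). Uqcrq, the dimmest, had a difference of -0.11 (adjusted p 0.203).

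Complex IV, cytochrome c oxidase, had 6 of 16 genes called lower and 0 higher, with a median of -0.11. That share of calls was near the 37.9% of all genes called in either direction, 19% lower and 18.9% higher. Without the 6 arrays, 4 were called lower, where 37% of all genes were called in either direction. Cox7a1, known as the heart and muscle isoform of subunit 7a, was the exception in size. In segment 1 it lay at 10.85, 10.98 and 10.94 in wild-type and at 10.79, 10.53 and 10.82 in knockout samples. Segment 4 gave 9.74, 9.67 and 9.83 in wild-type and 9.26, 9.69 and 9.65 in knockout samples, below every array of the other segments. Its means were 10.82 ± 0.16, 10.77 ± 0.19, 10.36 ± 0.19 and 9.64 ± 0.20 in segments 1 to 4 (SD, n = 6), a difference of -1.18 (SE 0.08, adjusted p 5.63e-10). Most of the fall lay in the later steps, -0.42 from segment 2 to 3 (adjusted p 0.00186) and -0.72 from segment 3 to 4 (adjusted p 5.58e-06). These steps, without the 6 arrays, were -0.48 and -0.73, and the later one passed (adjusted p 1.94e-04). The earlier one then rests on 1 knockout array of segment 2. Smooth muscle markers had a median difference of -0.04 between segments 4 and 1, with 0 of 10 called by limma and 1 at an unadjusted p under 0.05. Cox7a2, the widely expressed isoform, had means of 12.98 ± 0.03 and 12.70 ± 0.14 and fell by 0.29 (adjusted p 0.00213).

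The 8 tissue-restricted isoforms among the members, Cox7a1 and Ndufa4l2 included, had 1 gene called lower and 1 higher and a median of 0.12. Their 6 widely expressed counterparts had 5 called lower and a median of -0.25. Among the latter, Cox6b1 fell by 0.26 (adjusted p 2.58e-04), Cox8a by 0.25 (adjusted p 0.0159) and Cox6a1, the brightest complex IV gene, by 0.15 (adjusted p 0.0365). The calls of Cox8a and Cox6a1 were lost without the 6 arrays (adjusted p 0.0649 and 0.198), and on leaving out knockout segment 4 replicate 1 (adjusted p 0.0557 and 0.107). The call of Cox6a1 was also lost on leaving out wild-type segment 1 replicate 1 or 2, knockout segment 1 replicate 1 or 3, or wild-type segment 4 replicate 2 or 3 (adjusted p 0.0551 to 0.0988). Cox4i1 had a difference of -0.14 (adjusted p 0.0878). The restricted isoforms Cox4i2 (0.08), Cox8b (0.20), Cox8c (0.16), Cox6a2 (-0.07) and Cox7b2 (-0.11), known from lung, muscle or testis, did not pass. The smallest differences in complex IV, averaged over the genotypes, were those of Cox5a (0.01, adjusted p 0.908) and Cox7a2l (0.00, adjusted p 0.99), the latter a factor of the supercomplexes. For Cox7a2l this averaged -0.22 in wild-type (adjusted p 0.293) and 0.22 in knockout samples (adjusted p 0.259). Cox5b, a subunit on the matrix side, fell by 0.45 (SE 0.10, adjusted p 8.61e-04).

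Cox6b2, known as the testis isoform of subunit 6b, had its highest mean in segment 2. In segment 1 it lay at 6.06, 6.16 and 7 in wild-type and 6.45, 6.60 and 6.02 in knockout samples. Segment 2 gave 7.29, 7.93 and 7.40 in wild-type and 8.03, 7.67 and 7.45 in knockout samples, all above every segment 1 array. The means of segments 1 to 4 were 6.38 ± 0.38, 7.63 ± 0.30, 7.44 ± 0.34 and 6.84 ± 0.43 (SD, n = 6), and the array ranges of segment 4 and segment 1 overlapped. The rise from segment 1 to 2 was 1.25 (SE 0.20, adjusted p 4.42e-04), and segment 4 against 1 was 0.46 (adjusted p 0.0763). Without the 6 arrays, 3 of which are of segment 2, the rise was 1.09, with 1 array left in knockout segment 2.

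**Figure D2:**
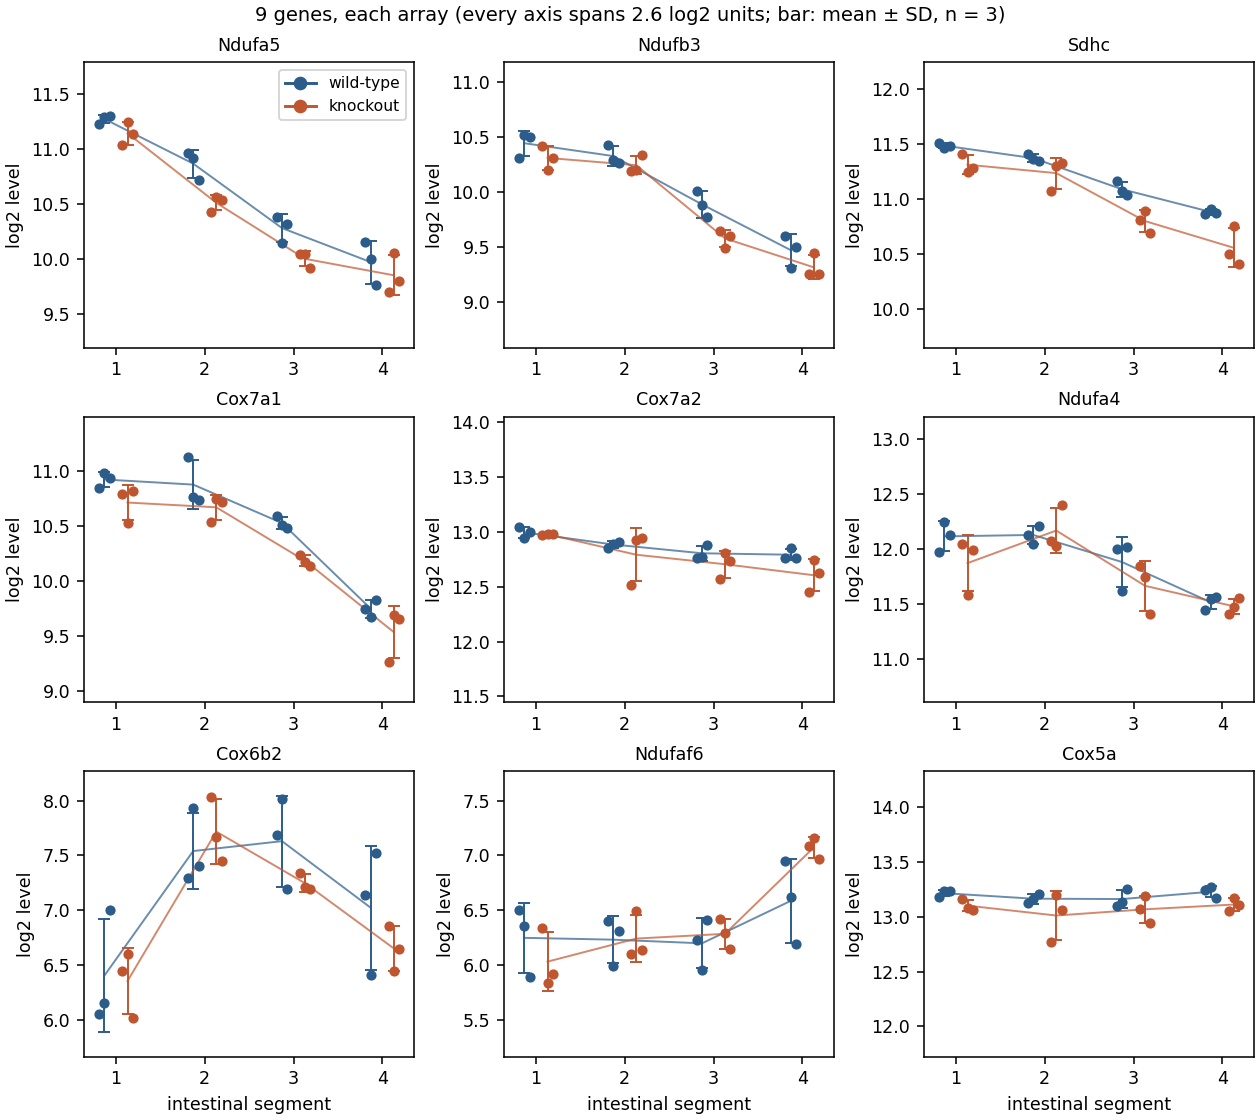
Log2 level on each array (points) of 9 members by segment (x axis) and genotype, with lines through the group means and bars for the SD of 3 arrays; every axis spans the same number of log2 units. Ndufa5, Ndufb3, Sdhc and Cox7a1 are lowest in segment 4, Cox6b2 has a mean of 7.63 in segment 2 against 6.38 in segment 1, and Ndufaf6 is highest in segment 4.

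The plot of 9 genes sets the array values just given side by side on a common scale. Cox5a, at a difference of 0.01 between segments 4 and 1, shows how flat a subunit of the same complex as Cox7a1 could be.

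The ATP synthase had 8 of 12 genes called lower, with a median of -0.31, and 8 without the 6 arrays, with a median of -0.29. Atp5e, the epsilon subunit of the catalytic head, had means of 11.61 ± 0.12 and 11.10 ± 0.15 in segments 1 and 4 (SD, n = 6) and fell by 0.50 (SE 0.07, adjusted p 5.05e-06), with no overlap between 11.40 to 11.76 and 10.86 to 11.25. Atp5k, subunit e of the membrane part, fell by 0.40 (SE 0.07, adjusted p 2.03e-04), and Atp5j, the coupling factor 6, by 0.39 (SE 0.06, adjusted p 2.17e-05). Atp5d, the delta subunit of the head, fell by 0.32 (SE 0.05, adjusted p 2.40e-05). The subunits that form the catalytic ring, Atp5a1 (-0.13, adjusted p 0.101) and Atp5b (-0.10, adjusted p 0.201), did not pass. Of the genes for the proton-carrying c subunit, Atp5g3, the brightest ATP synthase gene, fell by 0.15 (adjusted p 0.0157), and Atp5g1, the dimmest, had a difference of -0.15 (adjusted p 0.131).

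**Figure D3:**
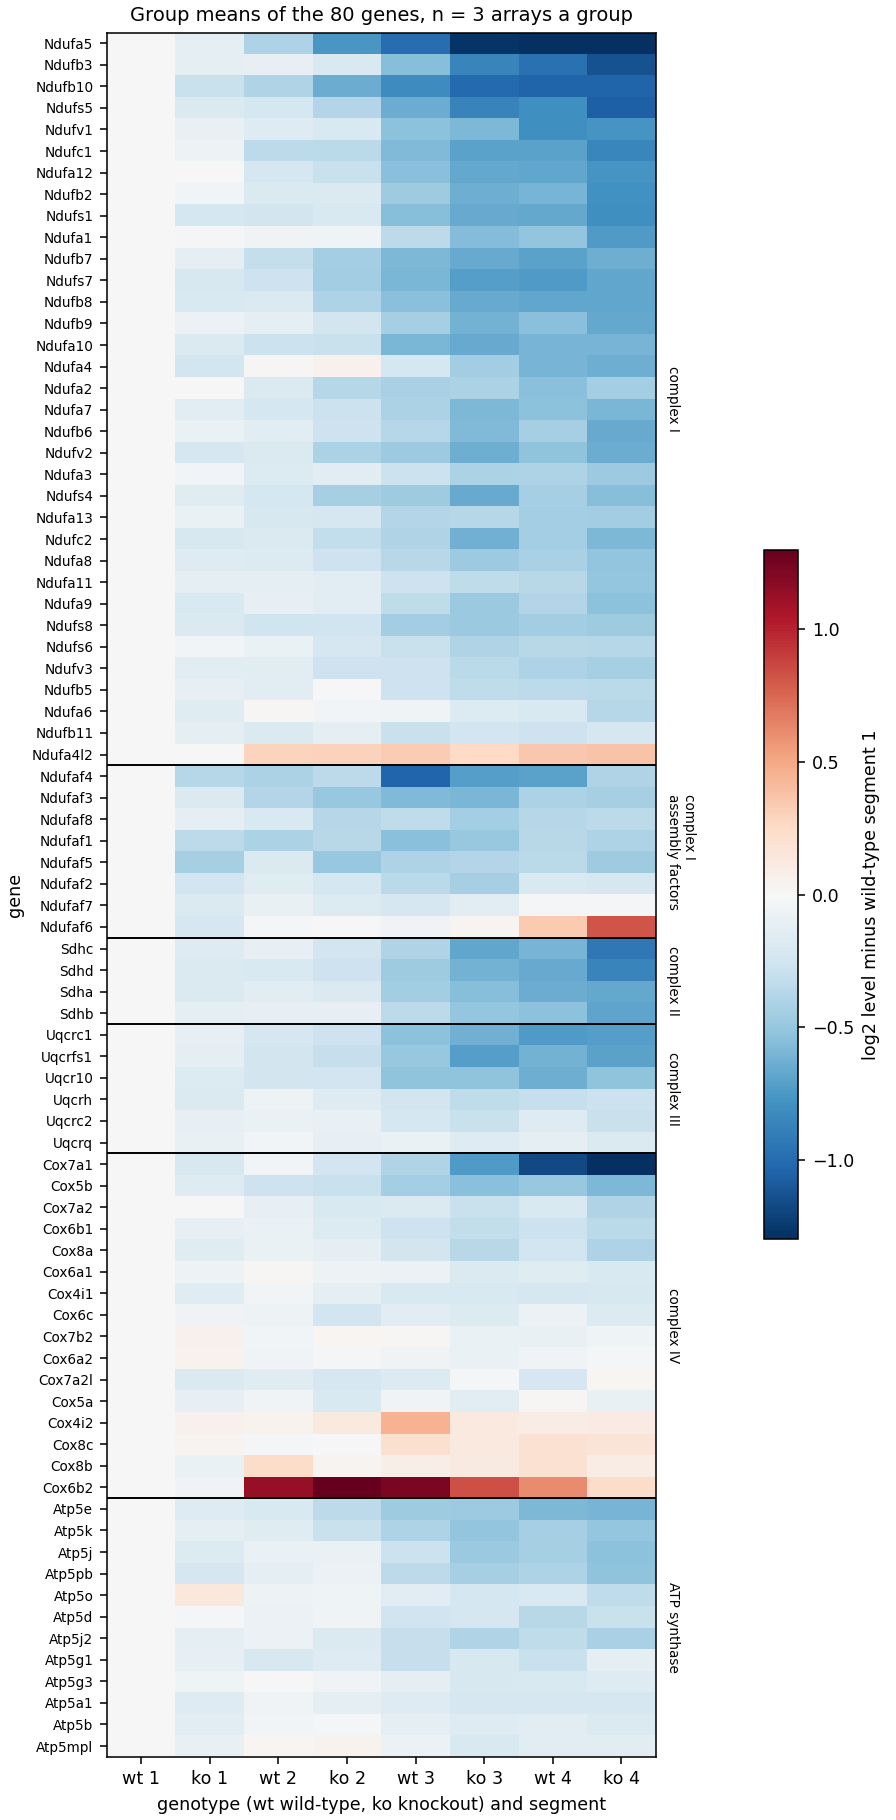
Group means of the 80 genes (rows, by complex and sorted by the difference between segments 4 and 1) in the 8 groups, as the log2 difference from the wild-type mean of segment 1; blue is lower and red is higher. The fall toward segment 4 runs through 31 of the 34 complex I genes and all 4 complex II genes, while complex IV holds 6 such genes of 16. Of all genes, 19% were called lower and 18.9% higher.

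The map of group means shows the levels by complex. By segment means over both genotypes, 50 of the 80 genes were lower at every step from segment 1 to segment 4. The highest of the 4 segment means was that of segment 1 for 65 genes, segment 2 for 7, segment 3 for 1 and segment 4 for 7. These counts were not made over all genes, so they cannot be set against a background share. In a test over all 4 segments, 61 members differed, where 38.8% of all genes did, and 53 without the 6 arrays, where 33.7% did. Without dim genes, 62 of 75 members and 4782 of 7635 genes differed. The step from segment 2 to segment 3 had the most calls among neighbouring segments. From segment 1 to 2, 10 members fell and Cox6b2 rose, where 7.02% of all genes were called (3.65% lower and 3.36% higher), and the median difference was -0.11. From segment 2 to 3, 38 members fell and 0 rose, where 10.7% of all genes were called (6.75% lower and 3.99% higher), with a median of -0.20. From segment 3 to 4, 7 members fell and Ndufaf6 rose, where 12.2% were called (6.11% in each direction), with a median of -0.05. After a further quantile normalization the median of the last step was 0.00.

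These step counts depended on a few arrays. Without the 6 arrays, knockout segment 2 kept 1 array (replicate 2), so only medians are given for the steps from and to segment 2. The median was -0.06 from segment 1 to 2, against -0.11 with all arrays. From segment 2 to 3 it was -0.22, against -0.20, and 75 of the 80 genes were lower in both fits. From segment 3 to 4, 5 members fell with 1 rise, where 11.4% of all genes were called. Leaving out wild-type segment 2 replicate 3 gave 7 calls for the first step, and leaving out knockout segment 2 replicate 3 gave 25 for the middle step. For the last step 4 calls were left without knockout segment 3 replicate 2 or knockout segment 4 replicate 3, and 5 without wild-type segment 3 replicate 1, wild-type segment 4 replicate 2 or knockout segment 4 replicate 1. The 38 calls from segment 2 to 3 comprised 24 complex I, 4 complex II, 3 complex III, 2 complex IV and 4 ATP synthase genes and 1 assembly factor. Whole ranges of 6 against 6 arrays did not overlap for 48 members lower in segment 4 than in segment 1, where 11.3% of all genes did so, and for 0 members higher, where 9.41% did. Between neighbouring segments, the later one lay wholly below for 3 members from segment 1 to 2, where 1.48% of all genes did so, for 13 from 2 to 3, where 3.17% did, and for 2 from 3 to 4, where 3.03% did. It lay wholly above for 1, 0 and 0 members, where 1.59%, 1.56% and 2.18% of all genes did.

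The fall from segment 1 to 4 was present in each genotype alone. In wild-type samples 53 members fell and 0 rose, with a median of -0.40, where 23.6% of all genes were called (13.6% lower and 10% higher). In knockout samples 47 fell and Ndufaf6 rose, with a median of -0.33, where 30.3% of all genes were called (14.9% lower and 15.4% higher). Without the 6 arrays, 45 fell and Ndufa4l2 rose in wild-type samples, with a median of -0.36, where 24.4% of all genes were called. In knockout samples 38 then fell and Ndufaf6 rose, with a median of -0.30, where 28.2% were called. With all arrays, the lists shared 45 lower genes, 84.9% of the wild-type list and 95.7% of the knockout list, and 77 of the 80 genes had the same sign in both. Ndufa5 differed by -1.30 in wild-type and -1.29 in knockout samples, Cox7a1 by -1.18 in each, and Ndufb10 by -1.04 and -0.75. The test of the genotype by segment interaction itself called 0 members and 0 of all genes (limma, 0% called), and at an unadjusted p under 0.05 it held 0 members and 907 genes. The lowest unadjusted p of a member was 0.0816, for Ndufaf4.

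**Figure D4:**
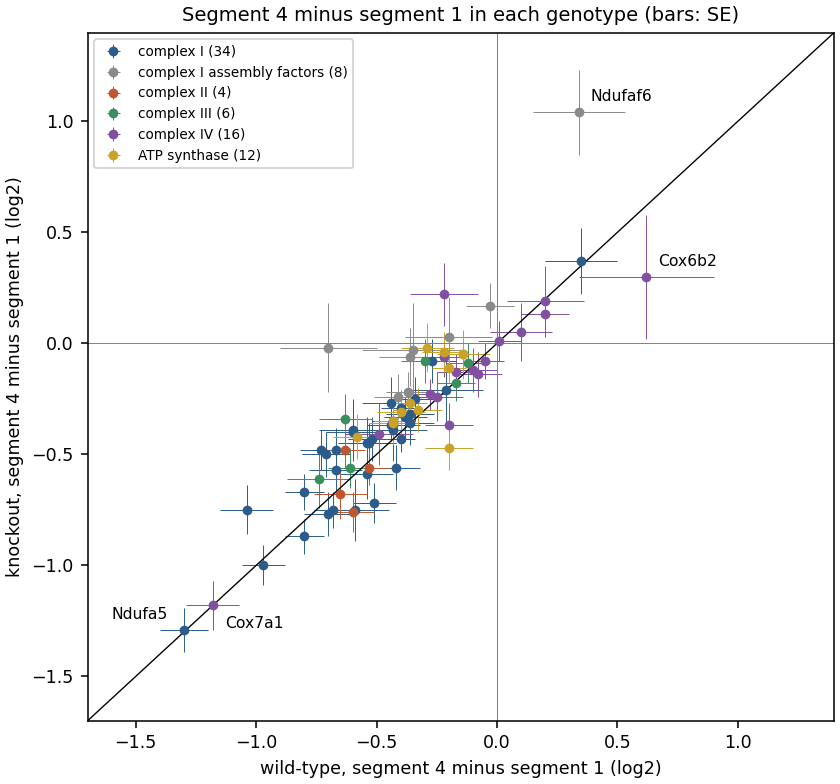
Difference between segment 4 and segment 1 (log2) of each of the 80 genes in wild-type (x axis) and knockout samples (y axis), coloured by complex, with bars for the SE and the line of equal differences. Ndufa5 and Cox7a1 lie lowest on both axes, and 77 genes have the same sign on both.

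The scatter of the differences in both genotypes shows the points near the line of equality, with Ndufaf6 at 0.34 and 1.04 among those farther from it. Other genes of the same pathway, in lists drawn from known membership, were lower in segment 4 too, where 19% of all genes were called lower and 18.9% higher. Of 16 measured genes of the tricarboxylic acid cycle and pyruvate dehydrogenase 13 fell and 1, Suclg2, rose, with a median of -0.39. Mdh2, mitochondrial malate dehydrogenase, fell by 0.88 (SE 0.04, adjusted p 8.30e-12). Dlat, a subunit of pyruvate dehydrogenase, fell by 1.48 (SE 0.10, adjusted p 4.16e-10), and Ogdh and Dlst of the oxoglutarate dehydrogenase fell by 0.91 and 0.63. Of 32 electron carriers and assembly factors outside the rule 20 fell and Acad9 rose, with a median of -0.31. Sdhaf3, an assembly factor of complex II, fell by 2.08 (SE 0.16, adjusted p 1.99e-09), and Cycs, cytochrome c itself, by 0.49 (SE 0.06, adjusted p 1.70e-06). The complex IV assembly factors Cox11 and Cox16 fell by 0.55 and 0.75.

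Of 11 regulators of mitochondrial biogenesis, 3 fell and 1 rose, with a median of 0.03. That share of calls was near the 37.9% of all genes called in either direction. Ppargc1a and Ppargc1b, coactivators that switch on mitochondrial genes, both fell, Ppargc1a by 1.53 (SE 0.17, adjusted p 4.46e-07), Ppargc1b by 1.06 (SE 0.18, adjusted p 6.54e-05). Esrra, the receptor they act with, fell by 0.21 (SE 0.08, adjusted p 0.0395), and Pprc1, a related coactivator, rose by 0.97 (SE 0.19, adjusted p 3.75e-04). The factors Nrf1 (0.03), Gabpa (0.14) and Tfam (0.24) did not pass.

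Markers of several cell types moved with the same contrast, in which 19% of all genes were called lower and 18.9% higher. All 10 measured proliferation markers rose from segment 1 to 4, with a median of 1.51, and their mean lay at 5.47 to 7.07 on segment 1 arrays and 6.93 to 7.74 on segment 4 arrays. All 7 goblet cell markers rose, their mean lying at 10.91 to 11.10 in segment 1 and 11.76 to 11.95 in segment 4, and so did the 3 measured Paneth cell markers, whose mean went from 7.33 to 9.02 up to 10.57 to 12.03. Among 9 lymphocyte markers (T cells, intraepithelial cells included) 8 fell and 1 rose, and of 7 crypt stem cell markers 5 rose. Of 9 enterocyte markers 5 rose and 2 fell (Lct and Alpi), and their mean lay at 13.36 to 13.48 in segment 1 and at 13.07 to 13.49 in segment 4. Of 10 pancreas markers 5 fell. The part of these shifts in the lower levels of the respiratory chain genes was not tested.

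For the knockout against wild-type comparison, no member passed limma's test in any segment. In segment 1, 0 of the 80 were called where 0.111% of all genes were, in segment 2 0 where 0.0721% were, in segment 3 0 where 0.0262% were, and in segment 4 0 where 0.0655% were. Over the mean of the 4 segments 0 members were called where 0.0262% of all genes were. At an unadjusted p under 0.05, limma's test held 9, 3, 10 and 5 members in segments 1 to 4 and 12 over the mean, and 1740, 1040, 1243, 748 and 1190 of all genes. The members' counts rested on single arrays. Segment 1 had 5 without knockout replicate 2 or either of wild-type replicates 1 and 2, and 12 without wild-type replicate 3. It had 2 with a replicate block or on the 18 other arrays. In segment 2 there was 1 without wild-type replicate 1 or with the block, 7 without wild-type replicate 3 and 9 without knockout replicate 2. Segment 3 had 6 without wild-type replicate 1 and 18 without wild-type replicate 2, and segment 4 had 3 without knockout replicate 1 and 10 without knockout replicate 2. Over the mean there were 6 without knockout replicate 1, 7 without knockout replicate 3 and 13 without knockout replicate 2. With genotype by replicate number as a random block there were 22, and 1416 of all genes. The values leaned to the lower side in knockout samples. In segments 1 to 4, 73, 58, 68 and 55 of the 80 were lower, with medians of -0.13, -0.06, -0.10 and -0.05, and over the mean 72 were lower, with a median of -0.09. The medians of all genes were 0.01, 0.01, -0.02, 0.00 and 0.00. The members share samples and RNA, so that their signs are not independent of each other.

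**Figure D5:**
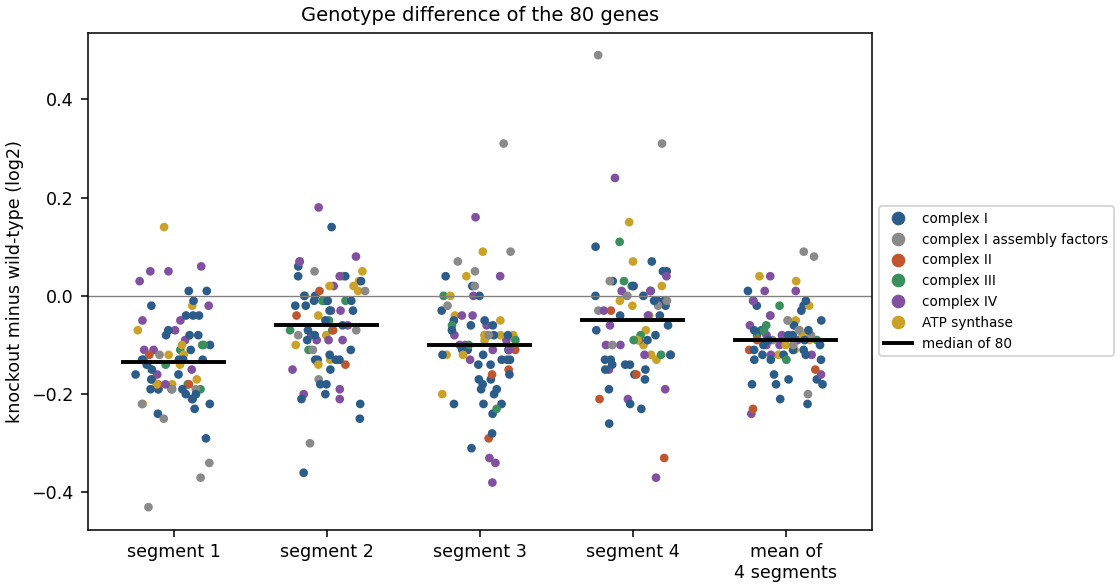
Knockout minus wild-type difference (log2, y axis) of each of the 80 genes (points, coloured by complex) in segments 1 to 4 and over their mean, with a bar at the median. The medians lie at -0.13, -0.06, -0.10, -0.05 and -0.09, and none of the genes passed the test.

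The plot of genotype differences shows medians below 0 in all 5 columns, and how far they lay below 0 rested on single arrays in segments 2 and 4. In segment 2 the median was 0.00 and 39 genes were lower without knockout replicate 1, an array high in fat and smooth muscle markers, and it was -0.02 with 46 lower without wild-type replicate 1 and -0.10 without knockout replicate 2. In segment 4 it was -0.01 without knockout replicate 1, -0.03 without wild-type replicate 1, -0.09 without knockout replicate 2 and -0.10 without wild-type replicate 3. Without the 6 arrays, the medians were -0.12, -0.07 and -0.05 in segments 1, 3 and 4. In segment 2 it was then -0.01, with replicate 2 as the only knockout array left. Proliferation markers, which rose along the intestine, had means of 5.72 to 7.07 in wild-type and 5.47 to 6.29 in knockout samples of segment 1. The highest array of each genotype there was one high in pancreas markers. In segments 2 to 4 the means lay at 5.78 to 6.23, 5.84 to 6.90 and 6.93 to 7.68 in wild-type samples. Knockout samples, at 5.67 to 6.58, 6.03 to 6.82 and 7.07 to 7.74, overlapped these. The part of the proliferation markers in the lower values was not tested.

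All 3 knockout arrays lay below all 3 wild-type arrays for 22 members in segment 1, where 8.67% of all genes did so, and for 7, 12 and 7 members in segments 2 to 4, where 3.76%, 6.89% and 4.88% did. They lay above for 1 member in segment 1, where 8.02% of all genes did so, for 0 in segments 2 and 3, where 5.74% and 3.97% did, and for 2 in segment 4, where 5.82% did. By complex, over the mean of the segments, 33 of 34 complex I genes, 4 of 4 complex II genes, 6 of 6 complex III genes, 13 of 16 complex IV genes and 10 of 12 ATP synthase genes were lower in knockout samples. Their medians were -0.10, -0.13, -0.08, -0.08 and -0.06. None of these genes passed the test, and 6 of 8 assembly factors were lower, with a median of -0.08.

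The members with the lowest unadjusted p over the mean of the 4 segments were Sdhc, Cox7a1, Ndufs5, Ndufb3 and Ndufa5. For Sdhc, whose segment 1 and 4 values are given above, the segment 3 arrays lay at 11.16, 11.07 and 11.03 in wild-type and 10.81, 10.89 and 10.69 in knockout samples. The wild-type arrays of Sdhc were the higher ones in all 4 segments. The groups lay closest in segment 2, at 11.41, 11.36 and 11.34 against 11.07, 11.30 and 11.33. Its difference was -0.23 (SE 0.05, 95% interval -0.35 to -0.11, adjusted p 0.322). Cox7a1 had -0.24 (95% interval -0.37 to -0.11, adjusted p 0.327), with segment 3 values of 10.59, 10.51 and 10.48 in wild-type and 10.24, 10.17 and 10.14 in knockout samples. Ndufs5 had -0.21 (adjusted p 0.396), Ndufb3 -0.17 (adjusted p 0.446) and Ndufa5 -0.22 (adjusted p 0.472). None of the 5 was below an adjusted p of 0.05 in this test of 3 against 3. In a fit of the 24 arrays with genotype by replicate number as a random block, Ndufs5 (adjusted p 0.024) and Sdhc (adjusted p 0.0269) were called.

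Within single segments the member with the lowest p was Ndufb10 in segment 1 (-0.29, 95% interval -0.53 to -0.06, adjusted p 0.34) and Ndufa5 in segment 2. The latter lay at 10.96, 10.92 and 10.72 in wild-type and 10.43, 10.56 and 10.54 in knockout samples of segment 2, a difference of -0.36 (95% interval -0.57 to -0.14, adjusted p 0.437). In segments 3 and 4 it was Sdhc, with -0.29 (95% interval -0.47 to -0.11, adjusted p 0.469) and -0.33 (95% interval -0.51 to -0.15, adjusted p 0.392). The precision of 3 arrays a group limited what could be seen. The 95% interval of the genotype difference lay within 0.5 log2 units of 0 for 72, 76, 74 and 74 of the 80 genes in segments 1 to 4 and for 79 over their mean. Unadjusted intervals that left out 0 numbered 9, 3, 10 and 4 on the lower side in segments 1 to 4 and 12 over the mean, and 1 on the higher side, in segment 4.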

How the data were processed

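Total RNA of 24 samples was measured on one-colour arrays, 1 per sample. The deposited values are log2 signals that the authors computed by RMA (version not stated), per the submitters' processing notes. That method subtracts background, gives all arrays one distribution by quantile normalization and summarises probes per set, which removes differences in total RNA and compresses low signals. Since no logarithm base is named, base 2, the usual output of RMA, was assumed. Of 16556 probe sets, 64 were controls and 1222 had no name in the platform annotation; for 3 genes with 2 probe sets the brighter was kept, which left 15267 genes. Symbols were checked against RefSeq by gene number, and 0 changed. No columns of other samples were present. Array medians lay at 6.06 to 6.16, values at 2.92 to 14.74, and correlations over genes within groups at 0.979 to 0.995. The number of arrays limits the precision.

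Groups were taken from the labels. In R 4.3.3, limma 3.58.1 fitted 8 group means to all 24 arrays (lmFit, eBayes; 16 residual and 3.35 prior degrees of freedom), with contrasts for genotype per segment, segments averaged over genotypes or per genotype, and the interaction. Genotype over the 4 segments was tested on the mean of the 4 arrays that share a genotype and a replicate number, 3 against 3, which groups arrays by number. P-values were adjusted over all genes per comparison (Benjamini-Hochberg), and a call is an adjusted p under 0.05. The fits were tested on simulated data. The labels call the replicates biological but do not say whether one mouse gave all 4 segments under a number, so segment tests treat arrays as independent. No scan or slide data were used, and no batch is given in the labels.

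The members, their complexes and the gene lists were chosen with earlier results of these data known, so lists are given as counts and medians without a test. Genes were named by rule: the complex II genes, the isoform pairs, per complex those with the lowest adjusted p over segments, the largest rises and falls, and the brightest and dimmest, and the members with the lowest p for genotype; of other lists, up to 4 called genes with the lowest adjusted p. Further genes were named with their values known. The settings varied were median centring, a further quantile normalization, a filter on dim genes, another prior, leaving out the 6 arrays high in other tissues' markers, single arrays or replicate numbers, fewer arrays in the fit and replicate blocks.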

Additional observations from a re-analysis of the deposited data

How the results depend on the processing

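The calls that segment 4 was lower than segment 1 kept their direction in every setting run, with 55 to 61 members called when 1 array was left out (5141 to 5749 genes), 56 after a further quantile normalization, with a median of -0.27, and 59 with a replicate block. Leaving out 1 array gave 7 to 12 members (706 to 1152 genes) for segment 2 against 1, 25 to 43 (1231 to 1907) for 3 against 2 and 4 to 9 (1254 to 2156) for 4 against 3. It gave 44 to 52 (2568 to 3496) in wild-type and 35 to 47 (3719 to 4294) in knockout samples, where the further quantile normalization gave 33, and leaving out a replicate number gave 55 to 61 (4401 to 5374) over all segments. Without the 6 arrays high in other tissues' markers, 487 genes and 1 member were called for segment 2 against 1 (1071 and 11 with all arrays) and 443 and 12 for 3 against 2 (1640 and 38). For 4 against 3, 13 members were called after median centring and 5 after the further quantile normalization, against 8.

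For genotype, leaving out 1 array gave 2 to 32, 3 to 28, 2 to 10 and 3 to 17 genes in segments 1 to 4, 1 to 4 over their mean and 0 to 3 for the interaction, each with 0 members. Segment 1, with 17 genes, had 10 after the further quantile normalization, 5 without the 6 arrays, 3 in a fit of that segment alone and 9 with a replicate block. Segment 2, with 11, had 1 in the fit of the segment alone. Segment 3, with 4, had 0 there (789 at an unadjusted p under 0.05 by limma) and 2 with the replicate block. Segment 4, with 10, had 6 without the 6 arrays and 3 in the fit of the segment alone. Over the 4 segments, with 4 genes, the replicate block gave 0 (1324 at an unadjusted p under 0.05 by limma), and leaving out the 6 arrays, which needed a random block, gave 16. With genotype by replicate number as a random replicate block on the 24 arrays, 109 genes and 2 members were called, Ndufs5 (-0.21, adjusted p 0.024) and Sdhc (-0.23, adjusted p 0.0269), against 0 members otherwise. The cause of these shifts was not tested.

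Arrays with the same number did not deviate together in all pairs. Between segments of a genotype, 15 of 36 such pairs correlated above 0.1 (median 0.06, range -0.29 to 0.52). Of the pairs with different numbers 18 of 72 did (median -0.07), so same numbers were somewhat more alike. Between genotypes 2 of 12 same-number pairs did (median -0.12, range -0.24 to 0.29), against 10 of 24 others (median 0.06). The main fits used no block between segments or genotypes. In wild-type samples all 6 pairs of replicate 1 lay at 0.39 to 0.52 and all 3 pairs of segments 2 and 3 at 0.38 to 0.52, while replicate 2 had 1 of 6 pairs above 0.1. The test over the 4 segments does group arrays by number. Of the values of named genes under alternatives, 789 kept their side of the threshold, 30 lost a call and 13 gained one, and 0 turned. Background correction and slide as a block were not run. Signals near the ends of the range, as of Cox7b2 and Atp5g1, limit what a difference can show.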

Other observations

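Genes of mitochondrial translation and transport held calls in both directions between segments 4 and 1, where 19% of all genes were called lower and 18.9% higher. Of 70 measured mitochondrial ribosome genes 21 fell and 4 rose, with a median of -0.06. That share of calls was near the 37.9% of all genes called in either direction. Mrps15, a protein of the small subunit, fell by 1.10 (SE 0.08, adjusted p 1.83e-09), and Mrpl43, Mrpl12 and Mrpl34, of the large subunit, fell by 0.42, 0.82 and 0.69. Of 15 carriers, porins and import genes 7 fell and 4 rose, with a median of -0.10. Slc25a11, the oxoglutarate carrier, fell by 0.83 (SE 0.06, adjusted p 1.99e-09), and Slc25a10, the dicarboxylate carrier, by 0.61, while Slc25a4, an isoform of the ADP/ATP carrier, rose by 2.74 (SE 0.31, adjusted p 5.41e-07).

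Cytosolic ribosome genes went the other way, with 14 of 23 measured genes higher in segment 4, 0 lower and a median of 0.60. The shares over all genes were 18.9% higher and 19% lower. Rpl4 rose by 0.82, Rps9 by 1.01, Rpl26 by 0.93 and Rps15 by 0.90. Over the mean of the 4 segments, limma called 0 genes of these lists between the genotypes. At an unadjusted p under 0.05 there were 2 of the carriers, porins and import genes, 1 cytosolic ribosome gene and 12 mitochondrial ribosome genes, and 64 of the 70 mitochondrial ribosome genes were lower in knockout samples, with a median of -0.08. Of all 15267 genes, 1190 had such a p by limma, and their median difference over all genes was 0.00.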
